A study of Mus musculus with 2 samples.

Results

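Liver endothelial cell genes were described as a set of 10 genes, chosen by symbol from the 19465 genes listed for each library: Clec4g, Plvap, Stab1, Stab2, Lyve1, Kdr, Pecam1, Sox17, Efnb2 and Efna1. All 10 were found in both libraries. Levels were measured by spatial transcriptomics (ST), in which pairs of probes are hybridised to a fixed liver section and each captured probe is counted by its unique molecular identifier (UMI) under a barcoded spot. A spot is a small region that holds several cells, so a spot is no cell type, and levels could not be compared between genes because each gene has its own probes. The knockout section came from a 27-week-old AEG-1DMAC mouse, in which AEG-1 (the gene Mtdh) is deleted in myeloid cells by a LysM-Cre that acts in macrophages, monocytes and neutrophils. The control section came from a 27-week-old AEG-1fl/fl littermate, which carries the floxed alleles without the deletion. Both animals are labelled as fed HF/HSD, a high fat/high sugar diet, from 7 weeks of age, which is 20 weeks of feeding, whereas the methods of the study describe ST on littermates fed a control diet. The diet of these sections was therefore not settled here. There was 1 section per genotype, so no difference below has a replicate check, no test was made, and each interval (95%) covers counting error only. Genotype, mouse, section and capture area cannot be told apart.

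After filtering, 2140 AEG-1DMAC spots and 2540 AEG-1fl/fl spots remained, with 45453286 and 50322850 UMIs and a median of 20929.5 and 18285 UMIs per spot. Of their barcodes, 1782 occurred in both libraries; these name positions of the capture area and no shared cells. Mtdh was at 66.3 CPM (UMIs of a gene over all UMIs of its library, scaled to 1000000) in AEG-1DMAC and 60.2 CPM in AEG-1fl/fl, and its log2 ratio was 0.14 (0.07 to 0.21), so that the whole-section level did not set the knockout apart. Across all 6933 genes that averaged 10 CPM or more, the log2 ratio of AEG-1DMAC over AEG-1fl/fl had a median of 0.15, which is the level that ratios of single genes are read against. Albumin took 8.80% of the UMIs of AEG-1DMAC and 14.2% of those of AEG-1fl/fl. Endothelial RNA was captured in both sections: all 19 genes of a pan-endothelial list that shares no gene with the 10 averaged 1 CPM or more, and the list summed to 487.7 CPM in AEG-1DMAC and 493.2 CPM in AEG-1fl/fl. This bar is low, as 11178 of the 19465 genes passed it, and it does not show which cells the RNA of the 10 genes came from.

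Liver sinusoids are lined by endothelial cells without a basement membrane, pierced by open pores (fenestrae), that take up waste from blood through scavenger receptors. Endothelial cells of arteries and portal vessels use other genes, among them those of the Notch pathway and the transcription factor Sox17, and endothelial cells by the central vein secrete the Wnt ligands that maintain the pericentral programme of hepatocytes. Ephrins are membrane-bound ligands that signal to Eph receptors on neighbouring cells, and ephrin B2 marks arteries.

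Promoter sequences were available for 6 of the 10 genes (Clec4g, Stab1, Stab2, Kdr, Efnb2 and Efna1), with 2 start sites for Efna1. The promoters of Efna1, the gene that differed most between the libraries, and of Clec4g and Stab2, sinusoidal genes that differed little, are shown for comparison. They were taken from RefSeq (GRCm38.p6), run 5′ to 3′ from 250 bases before to 50 bases after the start site, and all lie on the minus strand. Capitals mark the ETS-type motif AGGAAG and the TATA motif TATAAA on either strand.
Efna1, start site 1 (chr3:89280902-89281201): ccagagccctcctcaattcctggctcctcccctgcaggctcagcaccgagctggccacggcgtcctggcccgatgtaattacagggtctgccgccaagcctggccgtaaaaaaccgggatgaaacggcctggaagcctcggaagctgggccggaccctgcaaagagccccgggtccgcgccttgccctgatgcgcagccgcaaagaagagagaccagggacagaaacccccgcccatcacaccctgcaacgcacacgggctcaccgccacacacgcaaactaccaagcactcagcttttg
Efna1, start site 2 (chr3:89279596-89279895): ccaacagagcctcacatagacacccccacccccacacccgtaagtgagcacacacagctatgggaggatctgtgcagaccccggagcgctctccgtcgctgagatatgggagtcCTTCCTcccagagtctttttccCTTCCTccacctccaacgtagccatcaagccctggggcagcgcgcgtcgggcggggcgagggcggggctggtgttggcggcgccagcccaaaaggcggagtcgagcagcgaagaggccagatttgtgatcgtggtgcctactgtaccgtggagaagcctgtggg
Clec4g (chr8:3720602-3720901): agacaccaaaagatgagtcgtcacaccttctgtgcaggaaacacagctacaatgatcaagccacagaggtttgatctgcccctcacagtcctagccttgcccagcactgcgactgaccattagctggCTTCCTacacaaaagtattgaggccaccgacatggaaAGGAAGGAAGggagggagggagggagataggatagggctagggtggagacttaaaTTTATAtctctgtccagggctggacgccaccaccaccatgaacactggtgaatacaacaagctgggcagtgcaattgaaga
Stab2 (chr10:87007893-87008192): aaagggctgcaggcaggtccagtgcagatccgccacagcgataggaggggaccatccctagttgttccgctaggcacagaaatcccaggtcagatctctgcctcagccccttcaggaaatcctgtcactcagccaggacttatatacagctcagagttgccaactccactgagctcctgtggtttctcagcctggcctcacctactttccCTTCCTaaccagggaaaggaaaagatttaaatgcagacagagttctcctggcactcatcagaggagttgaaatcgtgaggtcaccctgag
The ETS-type motif was present 3 times for Clec4g, with 2 of the matches overlapping each other, once each for Stab1 and Stab2, and not for Kdr or Efnb2. The first Efna1 start site held none and the second held 2. The same letters occurred in 35.4% of 32851 RefSeq promoter windows, so a match is common. The TATA motif was present for Clec4g and Efnb2 and in 13.6% of all windows. The E-box CACGTG was in no window of the 6 genes and in 7.15% of all windows. The GATA-type motif AGATAA was likewise absent from them and found in 11.2% of all. For the SOX-type motif AACAAT, also absent from them, the share of all windows was 10.7%. Absence says no more than that these letters are not in these windows. By base composition, Efnb2 had 72.3% G and C, both Efna1 windows more than 63%, Kdr 60.7%, Stab1 57.3%, Stab2 53.0% and Clec4g 51.0%, against a median of 52.7% over all windows.

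The sinusoidal genes were at nearly the same level in both sections, while Efna1 was 3.30-fold lower in AEG-1DMAC and Lyve1, Sox17 and Efnb2, which were captured with few UMIs, were also lower. The 10 genes summed to 511.7 CPM in AEG-1DMAC and 601.2 CPM in AEG-1fl/fl, for a log2 ratio of -0.23. Most of this difference was that of Efna1 alone, at 37.1 CPM in AEG-1DMAC and 122.6 CPM in AEG-1fl/fl. By sign, 3 of the 10 were above and 7 below a log2 ratio of 0, and all 10 lay below the median of all genes. With scaling by edgeR's TMM factors none was above 0, because this scaling moved the median of all genes from 0.15 to 0.02. The median of the 10 was -0.09, which is 0.24 below that of all genes under either scaling (-0.24). A lower level can come from fewer cells of a type or from less RNA per cell, and these cannot be told apart in spots.

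Clec4g, a C-type lectin of sinusoidal endothelial cells, was at 155.5 CPM (151.9 to 159.2) in AEG-1DMAC and 152.5 CPM (149.1 to 156.0) in AEG-1fl/fl. Its intervals overlap, and the log2 ratio was 0.03 (-0.02 to 0.07). Plvap, which forms the diaphragms of endothelial pores and vesicles, was at 88.8 CPM in AEG-1DMAC and 90.4 CPM in AEG-1fl/fl, and its log2 ratio was -0.03 (-0.09 to 0.04). Scaled by library totals, both genes thus differed by less than counting error, though both intervals lie below the median of all genes (0.15). With TMM factors the log2 ratios were -0.10 for Clec4g and -0.15 for Plvap.

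Stab1 and Stab2 encode the stabilins, scavenger receptors by which sinusoidal cells clear modified proteins and, for Stab2, hyaluronan. Stab1 was at 74.5 CPM (72.0 to 77.1) in AEG-1DMAC and 69.8 CPM (67.5 to 72.1) in AEG-1fl/fl. Its log2 ratio of 0.09 (0.03 to 0.16) was the sole one of the 10 with an interval above 0, and it turned to -0.03 with TMM factors. Stab2 was at 64.4 CPM and 63.5 CPM, with a log2 ratio of 0.02 (-0.05 to 0.09). The 2 sections thus differed by 6.80% in Stab1 and 1.39% in Stab2.

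Kdr, the main receptor for vascular endothelial growth factor A (VEGF-A) in vessels, was at 69.0 CPM (66.6 to 71.5) in AEG-1DMAC and 76.1 CPM (73.7 to 78.5) in AEG-1fl/fl. The intervals do not overlap, and the log2 ratio was -0.14 (-0.21 to -0.07). Pecam1, an adhesion molecule of endothelial junctions, was at 13.8 CPM (627 UMIs) and 14.2 CPM (715 UMIs), with a log2 ratio of -0.04 (-0.20 to 0.11). Pecam1 was the gene whose value depended most on the summary over spots, since the mean of the CPM of single spots gave a log2 ratio of 0.31.

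Lyve1, a receptor for hyaluronan on sinusoidal and lymphatic endothelium, was captured at 87 UMIs in AEG-1DMAC and 173 UMIs in AEG-1fl/fl. These stand for 1.91 CPM (1.53 to 2.36) and 3.44 CPM (2.94 to 3.99), and the log2 ratio was -0.84 (-1.23 to -0.47). Sox17, a transcription factor of arterial endothelium, was at 3.76 CPM (171 UMIs) and 4.77 CPM (240 UMIs), with a log2 ratio of -0.34 (-0.63 to -0.05). Efnb2, the arterial ephrin ligand, was at 2.93 CPM (133 UMIs) and 3.88 CPM (195 UMIs), with a log2 ratio of -0.41 (-0.73 to -0.08). The 3 least captured genes were thus lower in AEG-1DMAC, with intervals below 0 that reach close to 0 for Sox17 and Efnb2.

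Efna1, a ligand of EphA receptors that is anchored to the membrane and is made by epithelial as well as endothelial cells, lies on chromosome 3 at 89271733 to 89281142 (GRCm38). It was at 37.1 CPM (35.4 to 39.0) in AEG-1DMAC, from 1688 UMIs, and 122.6 CPM (119.6 to 125.7) in AEG-1fl/fl, from 6172 UMIs. The log2 ratio was -1.72 (-1.80 to -1.65), and 0.0865% of the 6933 genes had a lower one. No other member came near this size, as the plot of levels shows.

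**Figure D1:**
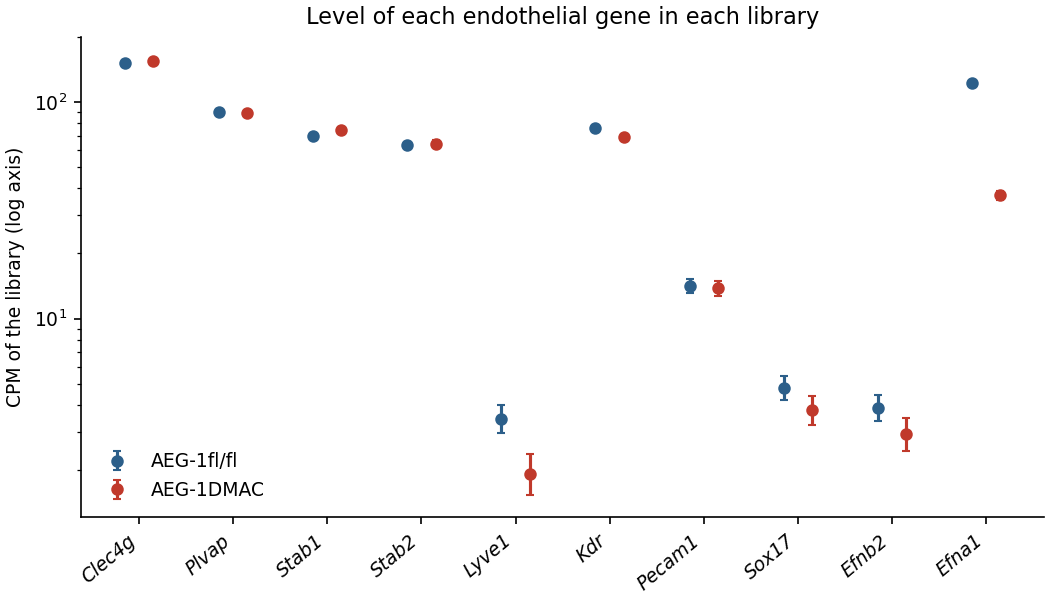
Level of each of the 10 genes in each library, in CPM on a log axis, with exact Poisson 95% intervals (hidden by the point where narrow). Blue points are the AEG-1fl/fl section and red points the AEG-1DMAC section; the points of Clec4g, Plvap, Stab1, Stab2 and Pecam1 lie side by side, while Efna1 is at 122.6 CPM in blue and 37.1 CPM in red.

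Counted as at least 1.5-fold apart with an interval on one side of 0, at an average of 10 CPM or more, 0 of the 7 members that reached this level were higher and 1 (Efna1) was lower in AEG-1DMAC, against 4.3% of all genes that were higher and 1.79% that were lower. The 3 members below this level were Lyve1, Sox17 and Efnb2. At an average of 1 CPM or more, which all 10 reached, 0 were higher and 2 (Lyve1 and Efna1) were lower, against 5.28% and 3.9% of 11178 genes. One or 2 genes are too few to set the list apart from all genes.

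The share of spots with at least 1 UMI gave the same picture. Deeper spots show more genes, so each spot was also thinned to 10000 UMIs, which left out 26 AEG-1DMAC and 106 AEG-1fl/fl spots that were shallower. Clec4g was seen in 93.0% of AEG-1DMAC and 91.5% of AEG-1fl/fl spots as deposited, and in 77.5% and 75.9% after thinning. Plvap, Stab1 and Stab2 were seen after thinning in 56.8%, 50.6% and 46.8% of AEG-1DMAC spots and in 57.9%, 50.04% and 46.5% of AEG-1fl/fl spots. The intervals of these 4 genes overlap between the sections.

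Kdr was seen in 74.0% and 75% of spots as deposited and, after thinning, in 49.0% (46.8 to 51.1) of AEG-1DMAC and 54.1% (52.1 to 56.1) of AEG-1fl/fl spots. Pecam1 was seen in 24.1% of spots of both sections as deposited, and in 11.7% and 14.2% after thinning. At 5000 UMIs per spot the Kdr shares were 29.4% (27.5 to 31.4) and 31.2% (29.4 to 33.0), with intervals that overlap. The order of Pecam1 turned with thinning to 5000 UMIs, where its shares were 7.47% and 6.52%. For Efna1 the share fell from 87.6% of AEG-1fl/fl spots to 53.8% of AEG-1DMAC spots as deposited, and from 70.8% (69.0 to 72.6) to 30.3% (28.4 to 32.3) after thinning. Spots with 2 or more Efna1 UMIs made up 65.1% of the AEG-1fl/fl and 18.7% of the AEG-1DMAC section. The difference in Efna1 was thus spread over most spots and not set by a few.

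For the 3 sparse genes the share in AEG-1DMAC was close to that of the highest background gene. Of 14 genes that liver does not use, 10 had 0 UMIs in AEG-1DMAC and 9 in AEG-1fl/fl, and the highest was Syt1, a synaptic gene, with 2.37% and 1.19% of thinned spots. Lyve1 was seen in 1.89% of AEG-1DMAC spots, below Syt1 in the same section, and in 3.25% of AEG-1fl/fl spots. Efnb2 was seen in 2.79% and 4.03%, and Sox17 in 3.60% and 4.68%. The share of Lyve1 in AEG-1DMAC was therefore no higher than that of the highest of these genes, which limits its ratio. Syt1 stood apart from the rest of the 14, whose median share in AEG-1DMAC was 0%, with Gfap at 0.24%. As each gene has its own probes, Syt1 sets no firm floor for other genes. Whether Lyve1 was above background in AEG-1DMAC was thus not settled. The intervals of Efnb2 (2.13% to 3.59%) and Sox17 (2.84% to 4.48%) in AEG-1DMAC also overlap that of Syt1 (1.76% to 3.11%), so the ratios of both genes and their AEG-1DMAC zonations carry the same limit. In AEG-1fl/fl all 3 genes lay above Syt1 (0.80% to 1.71%), with intervals that do not overlap it. These were 2.58% to 4.03% for Lyve1, 3.28% to 4.89% for Efnb2 and 3.88% to 5.60% for Sox17.

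**Figure D2:**
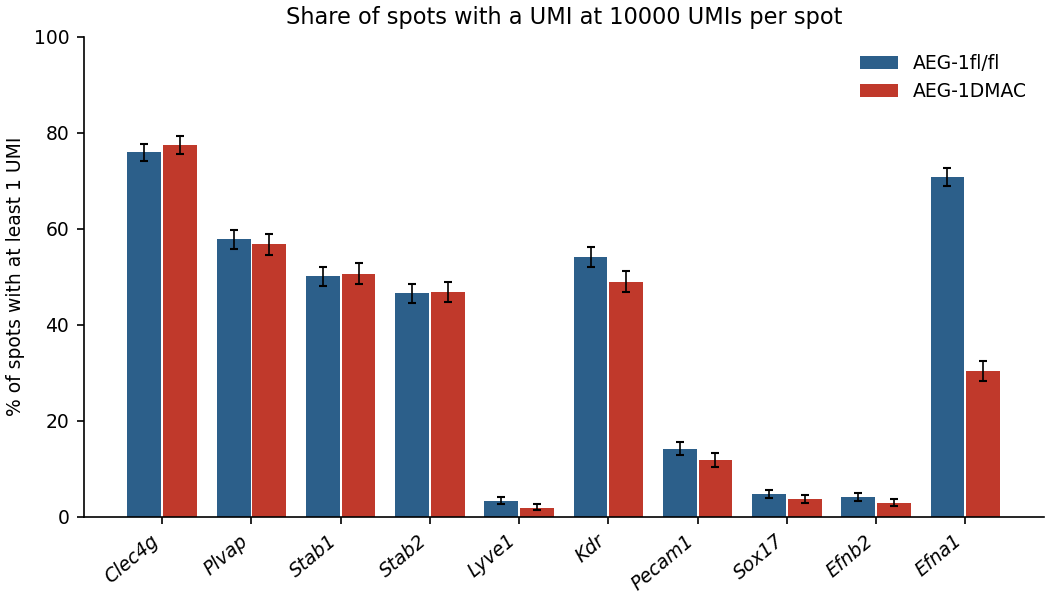
Share of spots with at least 1 UMI of each gene after thinning each spot to 10000 UMIs, in percent, with exact binomial (Clopper-Pearson) 95% intervals as black bars. Blue bars are AEG-1fl/fl and red bars AEG-1DMAC; Efna1 stands at 70.8% and 30.3%, and Lyve1, Sox17 and Efnb2 stay under 5% in both.

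To follow the genes along the liver lobule, spots of each library were ranked by an index of hepatocyte genes, from zone 1 (periportal, by the incoming blood) to zone 3 (pericentral, by the central vein), and divided into 3 equal parts. Zone 3 genes as a group were higher in AEG-1DMAC (median log2 ratio 1.05 for the 3 in the index), and ranks within a library do not show whether equal ranks are equal positions. Stab2 and Stab1 rose toward zone 3 in both sections, Kdr and Clec4g less so, and Efnb2 and, in AEG-1fl/fl, Sox17 were higher on the zone 1 side. The genes went both ways, and the signed median of the 10 was 0.08 in AEG-1DMAC and 0.18 in AEG-1fl/fl, against 0.09 and 0.07 over all genes.

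Stab2 was at 54.3, 62.3 and 76.5 CPM in zone 1, the middle and zone 3 of AEG-1DMAC and at 49.2, 65.4 and 76.0 CPM in those of AEG-1fl/fl. Its log2 ratio of zone 3 over zone 1 was 0.49 (0.36 to 0.63) and 0.63 (0.50 to 0.76), and it rose part by part in both. Stab1 went from 64.3 to 80.8 CPM in AEG-1DMAC and from 59.5 to 80.4 CPM in AEG-1fl/fl, log2 ratios of 0.33 (0.21 to 0.45) and 0.44 (0.31 to 0.56). Kdr had log2 ratios of 0.27 (0.14 to 0.40) and 0.24 (0.13 to 0.36). The slopes of the stabilins and of Kdr did not differ between the sections beyond counting error, with differences of -0.13 (-0.32 to 0.05) for Stab2, -0.11 (-0.28 to 0.07) for Stab1 and 0.03 (-0.14 to 0.20) for Kdr.

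Clec4g differed in shape. It was at 142.1, 171.7 and 152.4 CPM in zone 1, the middle and zone 3 of AEG-1DMAC, highest in the middle, and at 133.2, 158.2 and 166.1 CPM in AEG-1fl/fl, highest in zone 3. Its zonation was 0.10 (0.02 to 0.19) in AEG-1DMAC and 0.32 (0.24 to 0.40) in AEG-1fl/fl, and the difference of -0.22 (-0.34 to -0.10) stays the same under any scaling of the libraries. Plvap behaved alike, with zonations of 0.06 (-0.05 to 0.17) and 0.23 (0.12 to 0.34) and a difference of -0.17 (-0.32 to -0.02). With an index made of other zone genes, the Plvap zonation was 0.003 in AEG-1DMAC and 0.11 in AEG-1fl/fl. That of Clec4g was 0.05 and 0.32. With this index the gap between the sections was thus smaller for Plvap and larger for Clec4g.

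Decile bins of the spots showed gaps in both directions. In decile 3, on the portal side, Clec4g was higher in AEG-1DMAC, at 162.3 CPM (150.9 to 174.3) against 138.1 CPM (127.8 to 149.0). In the last decile, Clec4g was at 122.2 CPM (112.2 to 133.0) in AEG-1DMAC and 162.4 CPM (150.4 to 175.1) in AEG-1fl/fl. In the decile before it, the values were 160.3 CPM (148.8 to 172.4) and 168.2 CPM (157.1 to 179.9), with intervals that overlap. Plvap in the last decile was at 75.5 CPM (67.6 to 84.0) and 98.5 CPM (89.2 to 108.5), and Kdr at 62.4 CPM (55.2 to 70.2) and 83.6 CPM (75.1 to 92.9). Stab2, at 74.3 CPM (66.5 to 82.8) and 77.6 CPM (69.4 to 86.5), showed no such gap. The deciles were looked at after the zone parts, and these 4 genes were chosen with their values known. The lowest decile of Clec4g, Plvap, Stab1, Stab2 and Kdr was the first, at the portal end, in both sections.

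Efnb2 was at 3.31, 3.52 and 1.93 CPM in zone 1, the middle and zone 3 of AEG-1DMAC and at 5.56, 3.96 and 2.08 CPM in AEG-1fl/fl. It was higher toward zone 1, with log2 ratios of zone 3 over zone 1 of -0.78 (-1.49 to -0.09) and -1.42 (-2.03 to -0.83). Sox17 had log2 ratios of -0.31 (-0.86 to 0.24) and -0.65 (-1.15 to -0.17), so that its interval spans 0 in AEG-1DMAC. In AEG-1fl/fl both arterial genes thus lay on the portal side, where arteries run. Lyve1, at 0.69 (-0.16 to 1.57) and 0.13 (-0.44 to 0.70), and Pecam1, at -0.04 (-0.32 to 0.24) and 0.12 (-0.15 to 0.38), showed no zonation beyond counting error at this depth. Efna1 was nearly flat in both, at -0.16 (-0.34 to 0.01) and -0.12 (-0.21 to -0.03).

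**Figure D3:**
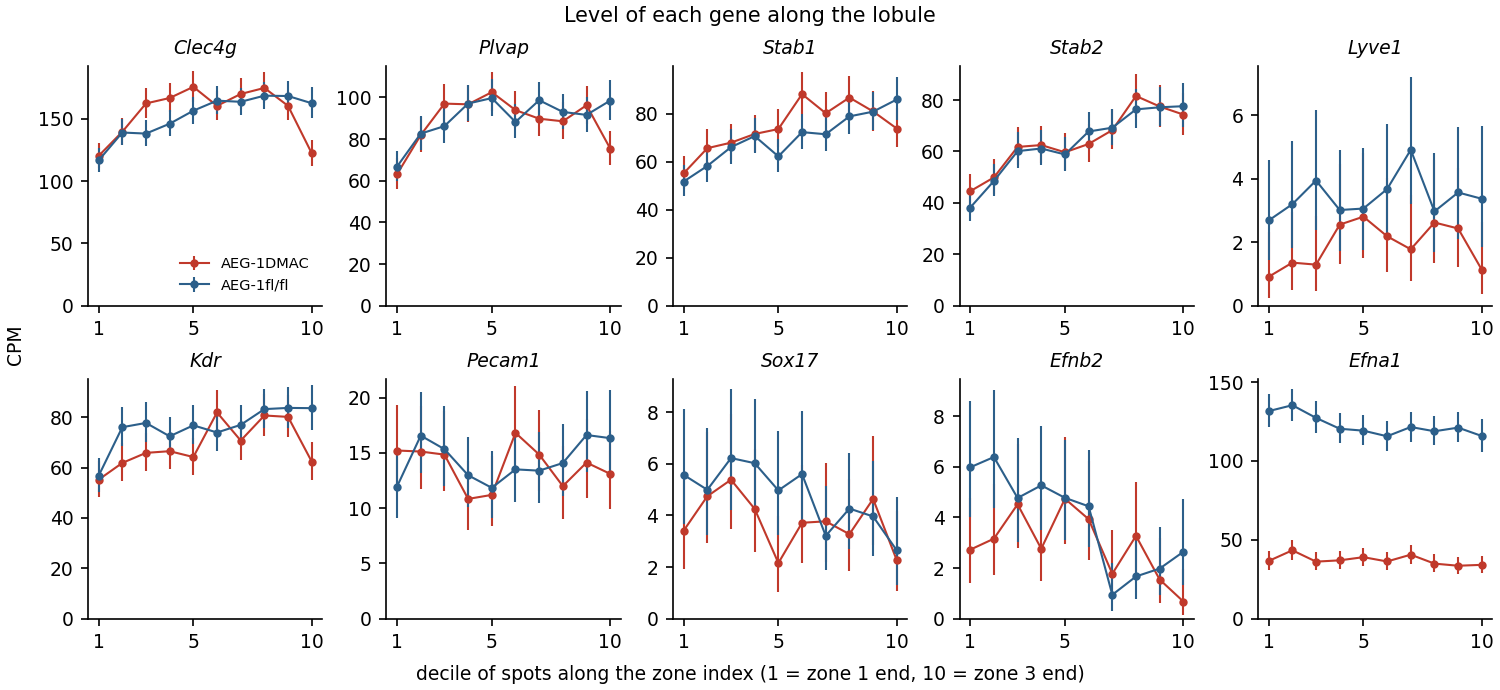
Level of each gene in CPM (each panel on its own axis from 0) against the decile of spots along the zone index, from the zone 1 end (1) to the zone 3 end (10), with exact Poisson 95% intervals. Blue is AEG-1fl/fl and red AEG-1DMAC; Clec4g, Plvap and Kdr part in the last decile, Stab2 rises in both sections, and Efna1 runs flat at 2 separate levels.

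By the same fold of 1.5 between zone 3 and zone 1, 0 of the 7 members at 10 CPM were zoned to zone 3 in AEG-1DMAC and 1 (Stab2) in AEG-1fl/fl, against 2.93% and 2.8% of all genes. None of the 7 was zoned to zone 1 in either section, against 1.95% and 1.68% of all genes. Below 10 CPM, Efnb2 passed 1.5-fold toward zone 1 in both sections and Sox17 in AEG-1fl/fl. The index holds none of the 10 genes.

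Within the zone parts, Efna1 was lower in AEG-1DMAC by nearly the same factor everywhere, with log2 ratios of -1.74 in zone 1, -1.65 in the middle and -1.79 in zone 3. Clec4g was at 0.09 (0.01 to 0.18) in zone 1, 0.12 (0.04 to 0.20) in the middle and -0.12 (-0.21 to -0.04) in zone 3. Plvap was at 0.02, 0.06 and -0.15 (-0.26 to -0.04). The median of all genes was 0.13, 0.16 and 0.15 in these parts, so the sign of the zone 1 and middle values of Clec4g rests on the scaling, while the step down in zone 3 does not. Efnb2 had its lowest ratio in zone 1, at -0.75 (-1.27 to -0.23), against -0.17 and -0.11 in the other parts, both with intervals that span 0.

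**Figure D4:**
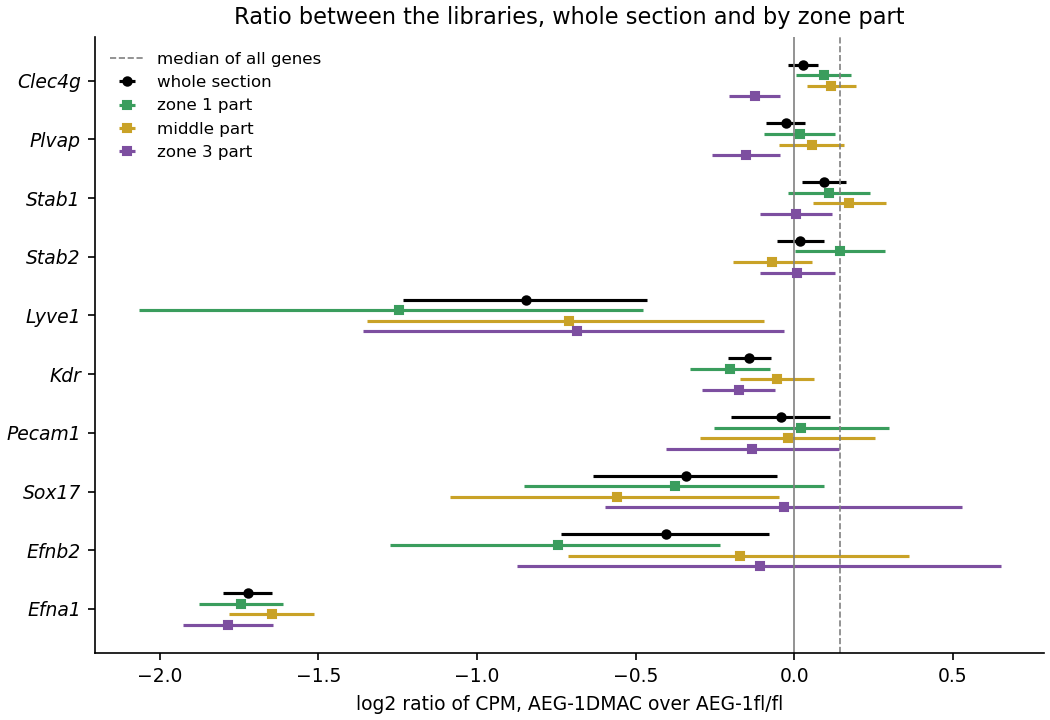
Log2 ratio of CPM, AEG-1DMAC over AEG-1fl/fl, for each gene in the whole section (black circles) and in zone 1, the middle and zone 3 (coloured squares), with exact conditional 95% intervals. The solid line marks 0 and the dashed line the median of all genes, 0.15; the 4 values of Efna1 lie between -1.65 and -1.79, and Clec4g and Plvap have their lowest value in the zone 3 part.

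As a measure of likeness, the profile of each gene over 20 bins of the zone index was correlated with that of every gene of at least 10 CPM, and the mean of both libraries was taken. Each r is a description over 20 bins that share one index, and hepatocyte genes with the same slope score high. Stab2 was most like Apoh (0.91), Cyp2c29 (0.91) and Pon1 (0.90), and its own profile had an r of 0.87 between the sections. Stab1 was most like Slc10a1 (0.91), Mup11 (0.89) and Lifr (0.89), and Kdr like Arl8b (0.83), Stab1 (0.81) and Tpt1 (0.81). Clec4g was most like Fgl1 (0.89), Ecm1 (0.86) and Ces1f (0.86), and Plvap like Igfbp7 (0.82), Ecm1 (0.80) and Ifitm1 (0.78). Ecm1, a matrix protein gene on the stellate cell list used here, stood among the leading 3 for both.

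For the sparse or flat genes the likeness was weaker. Efnb2 had an r of 0.71 with G6pc and with Tmsb4x, and Sox17 was most like Cfhr2 (0.66), Laptm5 (0.65) and Spp1 (0.65), Efna1 like Plxnb1 (0.59), AI182371 (0.58) and Cyp2u1 (0.57), Lyve1 like Lmbr1l (0.61), Rwdd4a (0.60) and Atg10 (0.58), and Pecam1 like Nop10 (0.52), Mcfd2 (0.51) and Gnb1 (0.50). The profile of Pecam1 had an r of -0.11 between the sections, so no shape of it was repeated.

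Whether the 10 genes kept company in the same spots was measured by taking, for each gene, the fifth of spots richest and poorest in the other 9 (428 spots each in AEG-1DMAC and 508 in AEG-1fl/fl). The median log2 ratio of rich over poor spots was 0.69 in AEG-1DMAC and 0.46 in AEG-1fl/fl, against -0.01 over all genes in both. Spots were ranked by summed CPM, so abundant genes weigh more. Of the CPM of all 10 genes, Efna1 made up 37.1 of 511.7 in AEG-1DMAC and 122.6 of 601.2 in AEG-1fl/fl. The ranking is therefore not alike in the sections, and the part of Efna1 in their difference was not tested. Stab1 was at 92.6 CPM in rich and 55.0 CPM in poor spots of AEG-1DMAC and at 86.8 and 52.1 CPM in AEG-1fl/fl, log2 ratios of 0.75 (0.59 to 0.92) and 0.73 (0.57 to 0.90). Pecam1 had log2 ratios of 0.85 (0.48 to 1.23) and 0.75 (0.38 to 1.12). Of the 7 members at 10 CPM, 3 were at least 1.5-fold higher in rich spots in AEG-1DMAC (Plvap, Stab1 and Pecam1) and 3 in AEG-1fl/fl (Stab1, Stab2 and Pecam1), against 2.25% and 1.13% of all genes.

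Efna1 followed the other genes little. Its level was 39.0 CPM in rich and 36.2 CPM in poor spots of AEG-1DMAC and 126.4 and 117.5 CPM in AEG-1fl/fl, and both log2 ratios, 0.11 (-0.11 to 0.33) and 0.11 (-0.01 to 0.23), span 0. With rich and poor spots taken within each zone part, the value was 0.11 (-0.11 to 0.33) in AEG-1DMAC and 0.16 (0.04 to 0.28) in AEG-1fl/fl, so that in the latter the interval lay above 0. The sparse genes Sox17 and Efnb2 were at 1.46 (0.71 to 2.27) and 1.22 (0.33 to 2.18) in AEG-1DMAC. In AEG-1fl/fl they were at 0.25 (-0.43 to 0.94) and 0.13 (-0.57 to 0.82). Within zone parts, Sox17 was at 1.59 in AEG-1DMAC and 0.53 (-0.11 to 1.19) in AEG-1fl/fl. Efnb2 was at 1.40 and 0.43 (-0.28 to 1.16), so both AEG-1fl/fl values rose but their intervals still span 0. The genes of the other lists gave the scale for this. Pan-endothelial genes had a median of 0.70 and 0.51 in member-rich spots, stellate cell markers 0.71 and 0.56, Kupffer cell markers 0.29 and 0.05, and hepatocyte markers -0.06 and -0.02. Efna1 thus lay nearer to the hepatocyte than to the pan-endothelial medians in both sections, and these spots bear out an endothelial label for it only weakly.

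Spots were also chosen without any of the 10 genes, as the upper 10% of spots by the pan-endothelial list against the rest. Pecam1 was at 27.9 CPM in the rich and 12.4 CPM in the other spots of AEG-1DMAC and at 23.9 and 13.3 CPM in AEG-1fl/fl, log2 ratios of 1.17 (0.87 to 1.47) and 0.84 (0.52 to 1.15). Sox17 had log2 ratios of 0.78 (0.11 to 1.40) and 1.24 (0.73 to 1.73), and Efnb2 0.99 (0.26 to 1.66) and 1.13 (0.54 to 1.69). Clec4g, Plvap, Stab1, Stab2 and Kdr had ratios of 0.31 to 0.64 in both sections, all with intervals above 0. Efna1 was again lowest, at 0.12 (-0.12 to 0.35) and 0.11 (-0.02 to 0.23). At 1.5-fold, 1 member of the 7 was higher in AEG-1DMAC (Pecam1) and 2 in AEG-1fl/fl (Stab1 and Pecam1), against 1.79% and 2.34% of all genes.

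In spots rich in markers of other cell types, the arterial genes and Pecam1 were higher near vessel walls and bile ducts, while the sinusoidal genes went different ways. In the 10% of spots richest in smooth muscle and vessel wall markers, Sox17 was at 5.46 CPM against 3.57 CPM elsewhere in AEG-1DMAC and at 13.3 against 3.87 CPM in AEG-1fl/fl, log2 ratios of 0.61 (-0.06 to 1.23) and 1.79 (1.35 to 2.21). Efnb2 had log2 ratios of 0.97 (0.27 to 1.62) and 1.38 (0.85 to 1.88) there, and Pecam1 0.86 (0.54 to 1.16) and 0.63 (0.31 to 0.93). Stab2 was lower there, at -0.38 (-0.58 to -0.19) and -0.29 (-0.48 to -0.10), and so was Clec4g, at -0.24 (-0.37 to -0.12) and -0.17 (-0.29 to -0.05). Plvap was higher there in AEG-1DMAC, at 0.51 (0.38 to 0.64), and not in AEG-1fl/fl, at 0.01 (-0.14 to 0.15). Stab1 was at 0.16 (0.002 to 0.32) and 0.05 (-0.11 to 0.21), and Kdr was at 0.01 and -0.13, both with intervals that span 0. Of the 7 members, 1 (Pecam1) was at least 1.5-fold higher in each section, against 3.29% of all genes in AEG-1DMAC and 1.54% in AEG-1fl/fl.

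Bile duct markers, which mark portal tracts, gave a like picture. Efnb2 was at 6.65 CPM in rich and 2.53 CPM in other spots of AEG-1DMAC and at 10.3 and 3.11 CPM in AEG-1fl/fl, log2 ratios of 1.39 (0.75 to 1.999) and 1.72 (1.25 to 2.18). Sox17 had log2 ratios of 0.82 (0.17 to 1.42) and 1.64 (1.21 to 2.06). Efna1 was slightly higher in these spots, at 0.23 (0.004 to 0.45) and 0.19 (0.08 to 0.30). In the vessel wall spots Efna1 was at 0.13 (-0.10 to 0.35) and 0.08 (-0.04 to 0.20), with intervals that span 0. Plvap was at 0.36 (0.22 to 0.50) and 0.13 (-0.004 to 0.26), and Stab1 at 0.17 (0.01 to 0.33) and -0.03 (-0.19 to 0.13), while Clec4g, at -0.19 and -0.18, and Stab2, at -0.34 and -0.20, were lower in both sections with intervals below 0. In spots rich in stellate cell markers, Plvap was the sole member of the 7 past 1.5-fold, at 0.83 (0.70 to 0.95) and 0.66 (0.53 to 0.79), against 0.982% of all genes in AEG-1DMAC and 0.52% in AEG-1fl/fl. No member passed 1.5-fold in spots rich in Kupffer cell markers, where 0.909% and 1.3% of all genes did.

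Other endothelial and signalling genes were read from 8 lists, which hold 78 distinct genes averaging 1 CPM or more. The ephrin and Eph, VEGF and Notch lists among them hold genes not confined to endothelium, such as Hes1. Of these, 5 were at least 1.5-fold higher and 8 lower in AEG-1DMAC, against 5.28% higher and 3.9% lower among all genes at this level, with a median log2 ratio of -0.09 against 0.13 over all genes. With TMM factors 1 was higher (Wnt2) and 14 were lower, so the split between higher and lower rests on the scaling. None of the 19 pan-endothelial genes was past 1.5-fold in either direction (median -0.03), the highest being Egfl7, a secreted vessel protein, at 0.29 (0.22 to 0.36) and the lowest above 10 CPM Flt1, a VEGF receptor, at -0.39 (-0.57 to -0.21). The list was not uniform, since Cldn5, a tight junction gene, was at -0.37 (-0.53 to -0.22) and Emcn, an endothelial mucin, at -0.47 (-0.72 to -0.22).

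Of 18 other sinusoidal genes, 1 was higher and 1 lower (median 0.04). Bmp2, by which endothelial cells induce hepcidin in hepatocytes, was at 33.6 CPM in AEG-1DMAC and 21.9 CPM in AEG-1fl/fl, for a log2 ratio of 0.62 (0.51 to 0.73). Cd36, a fatty acid transporter that macrophages and hepatocytes make too, was at 57.0 and 88.3 CPM, a log2 ratio of -0.63 (-0.70 to -0.56).

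The medians of the portal and central end lists lay on opposite sides of 0, while both summed levels were lower in AEG-1DMAC. Of 9 portal side genes at 1 CPM, 0 were higher and 4 lower (Dll4, Ntn4, Hey1 and Sox18), with a median of -0.54 and a summed log2 ratio of all 10 listed of -0.43 (-0.48 to -0.38). Dll4, the arterial Notch ligand, was at 5.35 CPM in AEG-1DMAC and 8.66 CPM in AEG-1fl/fl, for a log2 ratio of -0.70 (-0.93 to -0.47). Ntn4, a netrin of vessel basement membrane, was at 16.2 and 27.9 CPM, a log2 ratio of -0.79 (-0.92 to -0.66), while Gja4, a gap junction gene, was at 0.04 (-0.12 to 0.19). Dll4, Ntn4, Hey1 and Sox18 were counted for passing 1.5-fold downward, so ratios below those of Sox17 and Efnb2 follow from that choice. The list was not uniform, with Gja4 above both.

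Of 6 central vein side genes at 1 CPM, 3 were higher (Wnt2, Kit and Cdh13) and 1 lower (Fabp4), with a median of 0.40. The summed log2 ratio of all 8 listed was -0.15 (-0.21 to -0.08), in which Fabp4 weighs most. All 6 at 1 CPM were zoned to zone 3 in both sections, against 2.93% of all genes at 10 CPM in AEG-1DMAC and 2.8% in AEG-1fl/fl. Of the 9 portal side genes, 4 were zoned to zone 1 in AEG-1DMAC and 5 in AEG-1fl/fl, against 1.95% and 1.68% at 10 CPM. Wnt2 was at 9.42 CPM (428 UMIs) in AEG-1DMAC and 4.63 CPM (233 UMIs) in AEG-1fl/fl, for a log2 ratio of 1.02 (0.79 to 1.26). Wnt9b, the other Wnt ligand of the central vein, had 49 and 23 UMIs, a log2 ratio of 1.24 (0.50 to 2.02), below the mean of 1 CPM set for counts. Rspo3, which strengthens Wnt signals, did not differ beyond counting error by library totals, at 14.2 and 14.5 CPM and a log2 ratio of -0.04 (-0.19 to 0.12). With TMM factors its log2 ratio was -0.16 (-0.32 to -0.01). Fabp4, a fatty acid carrier, was at 23.9 and 44.5 CPM, a log2 ratio of -0.90 (-1.005 to -0.79), and Kit, a growth factor receptor, was at 14.4 and 9.40 CPM (0.62). In the same sections the zone 3 landmark genes of hepatocytes had a median of 0.74, with 4 of 7 past 1.5-fold upward; its part in these values was not tested.

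Of the 9 genes of large or capillarised vessels, Vwf, the clotting protein of larger vessels, was higher at 15.3 against 10.0 CPM, a log2 ratio of 0.62 (0.45 to 0.78). Col4a1, a basement membrane collagen, was lower at 24.5 against 41.4 CPM, a log2 ratio of -0.75 (-0.86 to -0.65). Cd34, a marker of capillarised sinusoids, was at 0.21 (-0.11 to 0.52). Markers of other cells in the tissue moved beside these genes as follows: the summed log2 ratio was 0.13 for the 4 smooth muscle and vessel wall markers (34.3 and 31.3 CPM), 0.24 for the 4 bile duct markers (73.5 and 62.3 CPM), -0.01 for the 5 stellate cell markers and 0.05 for the 5 Kupffer cell markers, with no marker at 0. Within these sums single markers moved: Acta2 and Myh11, contractile genes of smooth muscle, were higher at 0.60 and 0.62 (list median 0.48), and Marco, a macrophage scavenger receptor, was lower at -1.38. Colec11, of the stellate cell list, was at -0.48 (-0.55 to -0.40), short of 1.5-fold. The part of these markers in the vessel genes was not tested.

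Receptors and ligands around Kdr, Efnb2 and Efna1 moved less than Efna1. Of 8 VEGF ligands and receptors at 1 CPM, 0 were past 1.5-fold (median -0.14): Vegfa, the ligand of Kdr, was at 112.0 and 88.1 CPM, a log2 ratio of 0.35 (0.29 to 0.41), and Vegfb was at -0.40 (-0.51 to -0.29). Of 6 other ephrins and Eph receptors at 1 CPM, 0 were past 1.5-fold (median -0.20). Epha2, a receptor of ephrin A1, was at 28.8 CPM in AEG-1DMAC and 39.6 CPM in AEG-1fl/fl, for a log2 ratio of -0.46 (-0.56 to -0.36), and Epha1 was at 0.08 (-0.03 to 0.19). Ephb4, the receptor of ephrin B2, was at -0.10 (-0.28 to 0.08). Of 8 Notch pathway genes, 0 were higher and 3 lower (Dll4, Hey1 and Hes1), with a median of -0.25. Jag1, a Notch ligand, was at -0.23 (-0.42 to -0.05). Hes1, a Notch target that hepatocytes and bile ducts also make, was at 14.3 and 28.4 CPM, a log2 ratio of -0.99 (-1.12 to -0.85).

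**Figure D5:**
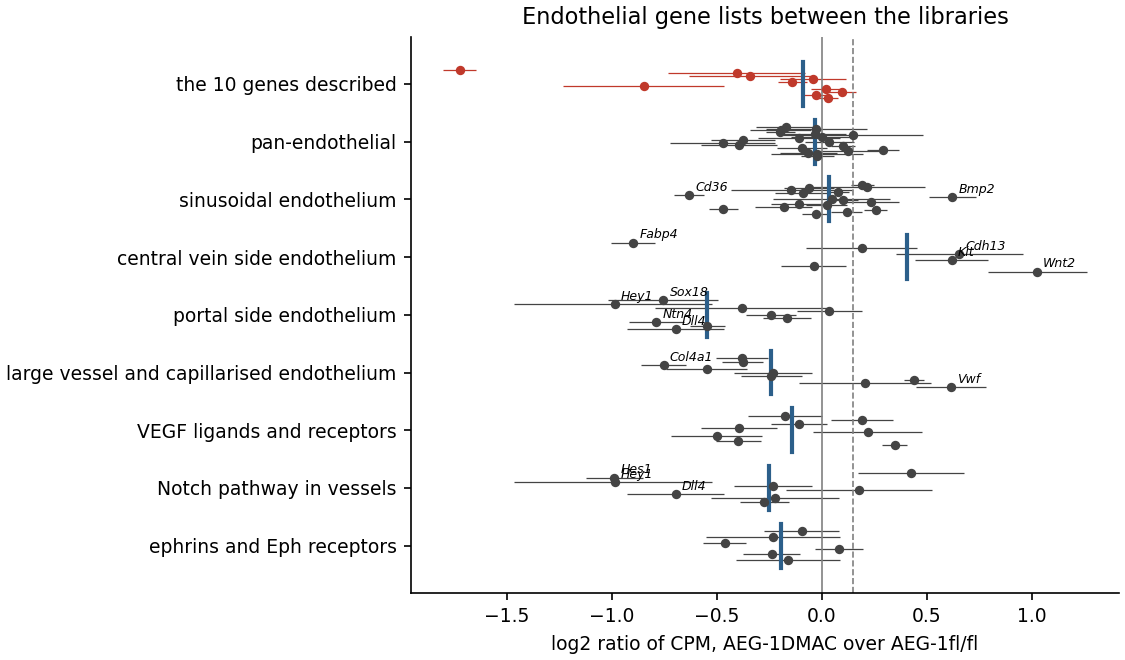
Log2 ratio of CPM, AEG-1DMAC over AEG-1fl/fl, of each gene averaging 1 CPM or more in the 10 genes described (red) and in 8 lists of other endothelial and signalling genes (grey), with 95% intervals; blue bars are list medians, the solid line is 0 and the dashed line the median of all genes at 10 CPM, 0.15. Named genes passed 1.5-fold; portal side genes, with a median of -0.54, lie left of 0 except Gja4 at 0.04, and Wnt2, Kit and Cdh13 of the central vein side lie right of it.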

How the data were processed

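ST was performed on 1 liver section of an AEG-1DMAC and 1 of an AEG-1fl/fl mouse, grouped by the genotype labels. Per the submitters' processing notes, the authors used Space Ranger 2.0.1 with mm10 and Seurat 4.3.0, and the deposited files hold raw UMI counts per gene and spot, with no normalisation. By the limits stated in the study, spots with over 50000 UMIs, under 100 genes or over 7000 genes were removed. This took out 9 of 2149 deposited AEG-1DMAC spots and 3 of 2543 deposited AEG-1fl/fl spots. The study gives 2149 and 2543 as its numbers after filtering, so its set of spots was not matched exactly. Counts were summed over spots and given as CPM with an exact Poisson interval. Ratios have an exact conditional binomial (Clopper-Pearson) interval; both are 95% intervals of counting error. Python 3.11.15 with numpy 2.4.6, scipy 1.17.1 and pandas 2.3.3 was used, and edgeR 4.0.16 (R 4.3.3) for TMM factors. The ratio with its interval was tested on simulated data. A gene was counted when its ratio was at least 1.5-fold with an interval on that side, at a mean of at least 10 CPM (1 CPM for the other lists).

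The zone index was the mean of scaled, log-normalised zone 3 markers (Cyp2e1, Cyp1a2 and Oat) minus that of zone 1 markers (Arg1, Cyp2f2, Gls2, Hal, Hsd17b13 and Pck1). Zone 3 and zone 1 landmarks outside the index gave an alternative. The members and all lists were chosen with earlier results of these data known. Named were all 10 members; from each other list the gene with the highest and the one with the lowest ratio at 10 CPM, with Epha1, Epha2, Ephb4, Flt1, Vegfa, Dll4, Wnt2, Wnt9b, Rspo3, Vwf and Cd34; and the 3 genes with the most similar zone profile (log2 of CPM plus 1), of which 1 for Efnb2 is not reported here. Hey1, Sox18, Cdh13, Acta2, Myh11, Marco, Colec11, Cldn5 and Emcn were named as part of small counts or to show spread, after their values were seen. Spots rich in the lists of other cells were added after the data had been read. Gene positions are from GENCODE M21 (GRCm38) and promoters from RefSeq (GRCm38.p6). Alternatives were other scalings, spot filters, matched depth, an equal mix of zones, other zone indices and parts, and other minimum levels and folds. No p-value was computed.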

Additional observations from a re-analysis of the deposited data

Results flagged for a closer look

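Clec4g had ratios of opposite sign in parts of the lobule. Its log2 ratio of AEG-1DMAC over AEG-1fl/fl was 0.094 in the zone 1 part and 0.118 in the middle part, each with an interval above 0, and -0.124 in the zone 3 part, with an interval below 0. With 1 section per genotype the difference between the parts was not tested across animals. All 3 values lie below the median of all genes in the same parts (0.13, 0.16 and 0.15).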

How the results depend on the processing

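Counts of members at least 1.5-fold apart rested on Efna1, which was lower at -1.70 to -1.87 under every scaling and spot selection tried. The median of the 10 moved from -0.09 to -0.22 with TMM factors and to -0.22 with median-of-ratios size factors. With a total without the 50 most abundant genes it was -0.23. The ratio of Stab1 turned from 0.09 to -0.029, -0.035 and -0.047 in that order, as these scalings lower every log2 ratio alike. Genes of the 8 other lists past 1.5-fold went from 5 higher and 8 lower to 1 and 14. This held with TMM factors and with the total without the 50 most abundant genes. Members past 1.5-fold downward went from 1 to 2 at a mean of 1 CPM, since Lyve1 then counted. With the outer 10% of spots at each end, members zoned to zone 3 went from 0 to 1 in AEG-1DMAC and from 1 to 2 in AEG-1fl/fl. Leaving out Efna1 or Sox17 gave a median of -0.04. An equal mix of zones put the Stab1 ratio at 0.01, Stab2 at -0.10 and Efnb2 at -0.22. Depth limits Lyve1, Sox17, Efnb2 and Pecam1, captured with 87 to 715 UMIs, and 1 section per genotype limits every ratio. No paired analysis was possible because each genotype has 1 sample.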
